A study of Mus musculus with 6 samples.

Results

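The MHC class II pathway genes described here are 8 of the 20938 genes in the table: H2-Eb1, H2-Aa, H2-Ab1, Cd74, Ciita, H2-DMa, H2-DMb1 and Ctss. They were taken by gene symbol from a set chosen by pathway role and by the FPKM values of these NBIF and DMSO samples, so the differences between the groups are given for them as a description. How many of them pass the fit of all genes is stated beside the share of all genes, and is no evidence about them. RNA sequencing was done on RAW264.7 cells, a macrophage-like tumour line of BALB/c mouse origin that can be driven to form osteoclasts. All 6 samples came from RAW264.7 cells induced to form osteoclasts; 3 received neobavaisoflavone (NBIF), an isoflavone of plant origin, at 8 µM, and 3 received an equal volume of its solvent DMSO (0 µM). Cells without induction or without solvent were not analysed here, no source used here names the inducing agent, and no label states that the replicates are separate cultures. The p-values below rest on the spread among these samples, possibly technical.

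MHC class II molecules are pairs of an alpha and a beta chain that carry peptides from the endosome to the cell surface for recognition by CD4+ T cells. New pairs assemble on the invariant chain (Cd74), which endosomal proteases such as cathepsin S (Ctss) trim to a short fragment, and the H2-DM heterodimer (H2-DMa and H2-DMb1) exchanges that fragment for peptide. The coactivator Ciita is induced in macrophages chiefly by interferon gamma. The RFX complex, CREB and NF-Y recruit it to a set of conserved elements (the X1, X2 and Y boxes) in the promoters of class II genes.

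Promoters are shown because the conserved elements of class II genes lie there. The RefSeq table (GRCm38.p6, from C57BL/6J mice, a strain with another H2 haplotype than BALB/c) held promoters of 5 of the 8 members, from 250 bases before to 50 bases after the start; Ciita, H2-Ab1 and Cd74 are named only. Capitals mark the Y box core ATTGG or its complement CCAAT, the X1 box form AGNNACNGATG, the CRE palindrome TGACGTCA, which resembles the X2 box, and a paired interferon regulatory factor (IRF) form GAAANNGAAA. Each was searched on both strands, in forms chosen with these sequences in view. The H2-Eb1 promoter is chr17:34305617-34305916 (plus strand), that of H2-Aa chr17:34287774-34288073 (minus strand), that of H2-DMb1 chr17:34152941-34153240 (plus strand) and that of Ctss chr3:95526536-95526835 (plus strand).
H2-Eb1: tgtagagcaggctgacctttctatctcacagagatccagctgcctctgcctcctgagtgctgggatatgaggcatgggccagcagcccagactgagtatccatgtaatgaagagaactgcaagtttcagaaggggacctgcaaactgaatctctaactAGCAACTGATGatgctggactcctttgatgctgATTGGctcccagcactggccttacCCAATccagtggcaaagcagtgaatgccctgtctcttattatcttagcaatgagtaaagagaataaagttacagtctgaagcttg
H2-Aa: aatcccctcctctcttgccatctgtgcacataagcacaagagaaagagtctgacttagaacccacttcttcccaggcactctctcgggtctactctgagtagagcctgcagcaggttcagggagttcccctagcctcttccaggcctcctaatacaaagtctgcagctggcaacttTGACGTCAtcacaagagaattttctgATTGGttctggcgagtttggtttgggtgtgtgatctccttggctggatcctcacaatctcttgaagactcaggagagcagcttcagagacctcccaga
H2-DMb1: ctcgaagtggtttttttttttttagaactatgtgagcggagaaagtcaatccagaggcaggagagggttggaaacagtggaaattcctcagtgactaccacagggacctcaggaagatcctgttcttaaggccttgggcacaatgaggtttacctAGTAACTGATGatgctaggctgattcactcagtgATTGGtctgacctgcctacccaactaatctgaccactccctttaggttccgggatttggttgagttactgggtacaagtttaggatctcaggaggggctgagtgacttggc
Ctss: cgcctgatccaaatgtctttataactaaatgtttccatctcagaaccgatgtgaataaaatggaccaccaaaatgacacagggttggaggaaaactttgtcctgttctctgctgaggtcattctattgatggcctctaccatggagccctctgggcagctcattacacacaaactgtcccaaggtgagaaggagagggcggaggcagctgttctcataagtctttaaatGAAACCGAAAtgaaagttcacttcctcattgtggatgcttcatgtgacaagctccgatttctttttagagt

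In H2-Eb1 the X1 box form AGCAACTGATG ended 82 bases before the start and was followed after 22 bases by the Y box core. H2-DMb1 had the same arrangement, with AGTAACTGATG and 23 bases between. H2-Aa lacked the X1 form as written, and its CRE palindrome preceded the Y box core by 18 bases. The Ctss window held the paired IRF form GAAACCGAAA, from 21 to 12 bases before the start, and no Y box core. Over the 32851 promoters of the table, the Y box core was found in 37.4%, the X1 form in 0.968%, the CRE palindrome in 1.79% and the paired IRF form in 3.44%. Of 4 promoters of other class II genes of the H2 region, 4 held the Y box core and 2 the X1 form. That of H2-Eb2 had the arrangement of H2-Eb1, with AGCAACTGATG and 22 bases between, so it is not particular to the members. None of the matches overlapped another. The windows of H2-DMa, at 2 annotated starts (chr17:34122582-34122881 and chr17:34125268-34125567, plus strand), held only 1 Y box core between them. Both lie within the gene, which spans 34119541 to 34139101, and any other starts of it were not searched. The start used for H2-DMb1 also lies within its gene, which spans 34153072 to 34160230, as do its X1 and Y box matches.

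**Figure D1:**
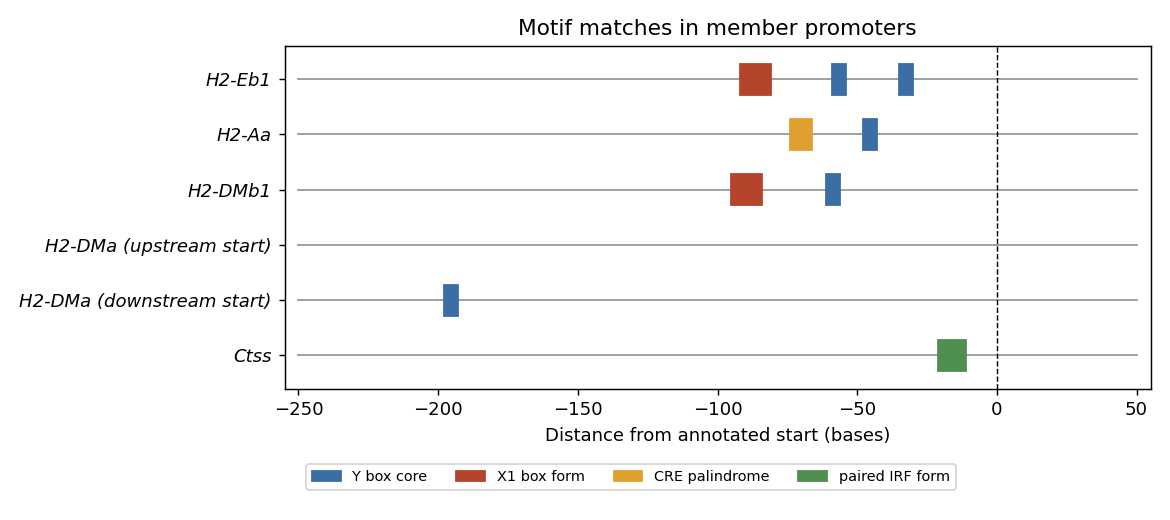
Motif matches in the 6 promoter windows of 5 members, by distance in bases from the annotated start (dashed line). H2-Eb1, H2-Aa and H2-DMb1 have a Y box core within 61 bases of the start with an X1 form or CRE palindrome before it, and Ctss has a paired IRF form.

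The members spanned a wide range of levels. Cd74 and Ctss averaged 465 and 509 FPKM (fragments sequenced, scaled for gene length and for the total) over the 6 samples and exceeded 99.3% of the genes in the table. H2-DMa averaged 5.36 and H2-Eb1 4.60 FPKM, and the remaining 4 members lay below 1 FPKM. Those 4 (H2-Aa, H2-Ab1, H2-DMb1 and Ciita) were below the minimum of a mean of 1 FPKM set for the fit of all genes, H2-Aa narrowly at 0.999 FPKM. The 5 genes H2-Eb1, H2-Aa, H2-Ab1, Cd74 and Ctss were higher in every NBIF sample than in any DMSO sample. The same held for 18.2% of the 15148 genes above 0 in a sample, and nothing is read from the count of members. H2-DMa, H2-DMb1 and Ciita overlapped between the groups.

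**Figure D2:**
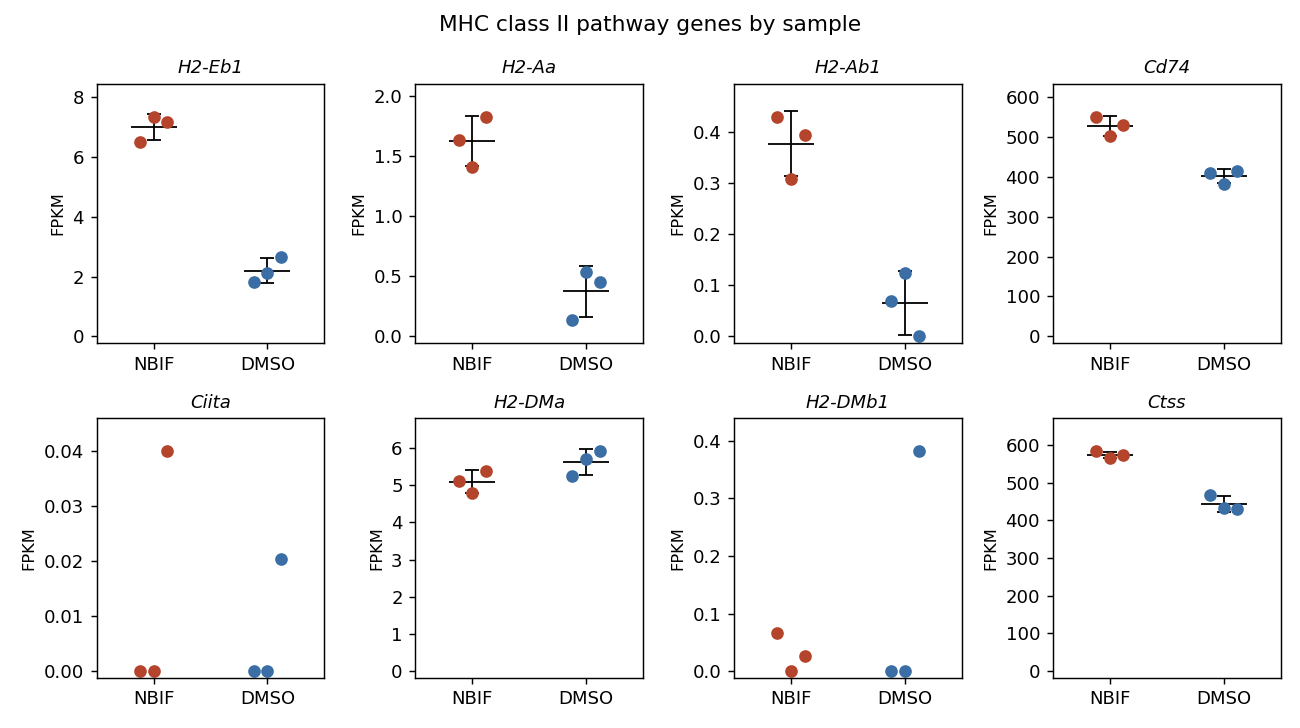
FPKM of the 8 members in each sample, NBIF left and DMSO right of each panel. Points are samples and bars are the mean ± SD (n = 3 per group). Bars are left out for Ciita and H2-DMb1, which were listed at 0 in 3 or more samples. H2-Eb1, H2-Aa, H2-Ab1, Cd74 and Ctss show no overlap of the groups, with NBIF above DMSO. The same held for 18.2% of the 15148 genes above 0 in a sample.

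H2-Eb1, the beta chain of the I-E molecule (chromosome 17, 34305867 to 34316674, plus strand, GRCm38), had 6.52, 7.35 and 7.17 FPKM in NBIF samples, against 1.81, 2.13 and 2.64 FPKM in DMSO samples. Every NBIF value was above every DMSO value. The means were 7.01 ± 0.439 FPKM with NBIF and 2.19 ± 0.419 FPKM with DMSO (SD, n = 3 each), a ratio of 3.20 and a difference of 1.33 ± 0.10 (SE) on the log2(FPKM + 1) scale. The gene for its partner, the I-E alpha chain, is a pseudogene in C57BL/6 and listed in the table as H2-Ea-ps. That name describes the C57BL/6 copy, and no source used here gives the state of the copy in these cells of BALB/c origin. H2-Ea-ps stood at 0, 0.0397 and 0.0349 FPKM in NBIF samples, against 0.0178, 0 and 0 FPKM in DMSO samples. Its listed level was thus near 0 in both groups. How reads of the BALB/c haplotype map to the C57BL/6 gene models was not tested, for this gene or for the other chains.

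H2-Aa, the alpha chain of the I-A molecule (chromosome 17, 34282744 to 34287823, minus strand), had 1.63, 1.41 and 1.83 FPKM in NBIF samples, against 0.134, 0.538 and 0.450 FPKM in DMSO samples. The groups did not overlap, and DMSO 1 was the lowest. The mean was 4.34 times as high with NBIF, and the difference was 0.94 on the log2(FPKM + 1) scale. H2-Ab1, the I-A beta chain (chromosome 17, 34257689 to 34269419, plus strand), had 0.431, 0.307 and 0.395 FPKM in NBIF samples, against 0.0687, 0.125 and 0 FPKM in DMSO samples. Its groups did not overlap either, with DMSO 3 listed at 0. The mean of H2-Ab1 was 5.85 times as high with NBIF, a ratio of values near 0. Its difference of 0.37 on the log2(FPKM + 1) scale is compressed by the added 1 FPKM, as is that of H2-Aa. The spread between replicates was wide where levels were low: the coefficient of variation of H2-Aa was 12.9% with NBIF and 56.8% with DMSO, and that of H2-Ab1 was 16.8% with NBIF and 96.9% with DMSO.

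The 3 chain genes together summed to 9.01 ± 0.411 FPKM with NBIF and 2.63 ± 0.558 FPKM with DMSO (SD, n = 3 each). H2-Eb1 made up 76.0% to 81.1% of that sum in NBIF samples and 76.3% to 89.9% in DMSO samples, ranges that overlap. Within the sum, its level was 3.92 to 5.21 times that of H2-Aa in NBIF samples and 3.96 to 13.5 times in DMSO samples, the highest being DMSO 1. Such shares and ratios between genes depend on the gene lengths used, which are unknown. They also depend on how reads of the BALB/c haplotype map, which was not tested.

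Cd74, the invariant chain, had 551, 502 and 531 FPKM in NBIF samples, against 409, 381 and 414 FPKM in DMSO samples. The groups were apart, and replicates were close, with coefficients of variation of 4.66% with NBIF and 4.38% with DMSO. Its mean was 1.32 times as high with NBIF, a difference of 0.40 ± 0.05 (SE) on the log2(FPKM + 1) scale. The FPKM of Cd74 far exceeded the sum of the 3 chain genes. Its ratio to that sum was 55.4 to 64.3 in NBIF samples and 134 to 203 in DMSO samples. This ratio too depends on the gene lengths used and on how reads of the chains map.

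Ctss, the protease of the late steps of invariant chain trimming (chromosome 3, 95526786 to 95556403, plus strand), had 583, 566 and 573 FPKM in NBIF samples, against 468, 434 and 430 FPKM in DMSO samples. Here too every NBIF sample lay above every DMSO sample. The mean was 1.29 times as high with NBIF, and the difference was 0.37 ± 0.04 (SE) on the log2(FPKM + 1) scale. The levels of Ctss and Cd74 stayed in a near-constant proportion, with a ratio of 1.09 ± 0.0349 with NBIF and 1.11 ± 0.0591 with DMSO (SD, n = 3 each).

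The values of both genes of the peptide exchange factor overlapped between the groups. H2-DMa (chromosome 17, 34119541 to 34139101, plus strand) had 5.11, 4.79 and 5.39 FPKM in NBIF samples, against 5.24, 5.70 and 5.91 FPKM in DMSO samples. The difference was -0.12 ± 0.07 (SE) on the log2(FPKM + 1) scale. In GENCODE M21, 10.4% of the exon bases of H2-DMa are shared with exons of Brd2 on the opposite strand, a gene at 60.6 ± 1.25 FPKM with NBIF and 67.0 ± 1.12 FPKM with DMSO (SD, n = 3 each). No source used here says whether counting used strand, and without it reads of the shared stretch cannot be told apart. H2-DMb1 was listed at 0.0658, 0 and 0.0267 FPKM in NBIF samples, against 0, 0 and 0.382 FPKM in DMSO samples. Its values are scattered around 0 in both groups, apart from DMSO 3. Its near-identical neighbour H2-DMb2 had 0.685, 0.424 and 0.441 FPKM in NBIF samples, against 0.156, 0.347 and 0.436 FPKM in DMSO samples, overlapping between the groups, and how reads were divided between these copies is uncertain.

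Ciita, the coactivator of class II genes (chromosome 16, 10480059 to 10528418, plus strand), was listed at 0, 0 and 0.0398 FPKM in NBIF samples, against 0, 0 and 0.0203 FPKM in DMSO samples. It was thus at 0 in 2 samples of each group, and no difference was detectable at these levels. Of 12 housekeeping genes looked up, 0 were at 0 in any sample, which says nothing about detecting a gene at levels near those of Ciita. Ifng, which encodes interferon gamma, was at 0 in all 6 samples.

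In the fit of the 9936 genes that reached the minimum (limma, Benjamini-Hochberg adjusted p under 0.05), 1850 genes (18.6%) changed, 1047 (10.5%) of them higher and 803 (8.08%) lower with NBIF. With samples scaled by their median ratio, 709 were higher and 1006 lower. The number changed was 1006 without NBIF 1, 1152 without NBIF 2, 1153 without NBIF 3 and 1164 without DMSO 1. Of the 4 members in the fit, 3 passed as higher (H2-Eb1, Cd74 and Ctss) and H2-DMa did not pass. Their median log2 change was 0.38, against 0.04 over all genes tested. Without the minimum, 5.23% of 15148 genes passed as higher, as did 5 of the 8 members, H2-Aa and H2-Ab1 being the additional ones. The groups did not overlap, with NBIF above DMSO, for 18.2% of the 15148 genes above 0 in a sample and for those 5 members. As the members were chosen with this comparison known, nothing is read from these counts or from their median.

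**Figure D3:**
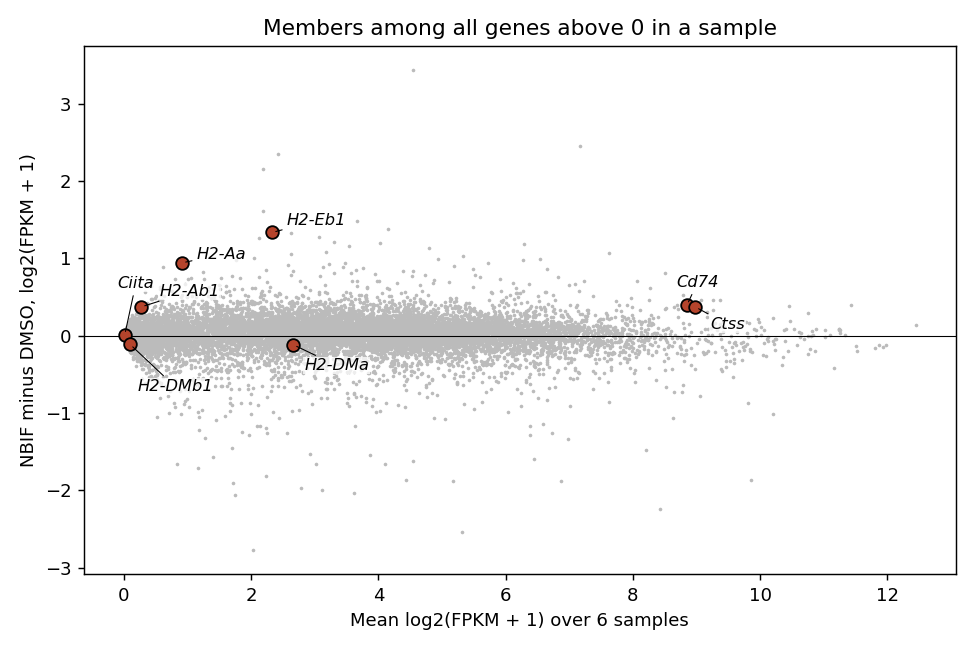
Difference between NBIF and DMSO on the log2(FPKM + 1) scale against the mean log2(FPKM + 1) over the 6 samples, for the 15148 genes above 0 in a sample (grey) and the 8 members (red). On this scale H2-Eb1 (1.33) and H2-Aa (0.94) have the largest differences among the members. Cd74 (0.40) and Ctss (0.37) lie together at high levels. Among the 3 chain genes the ratio of means ran the other way, at 5.85 for H2-Ab1, 4.34 for H2-Aa and 3.20 for H2-Eb1.

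The remaining class II genes of the H2 region were all below the minimum. H2-Oa, a subunit of the H2-DM inhibitor H2-O, had 0.983, 1.04 and 0.878 FPKM in NBIF samples, against 0.806, 0.570 and 0.586 FPKM in DMSO samples. H2-Ob, its partner, was at 0 in all NBIF samples and at 0.0813 FPKM in DMSO 1 alone among DMSO samples, and H2-Eb2 was at 0 throughout.

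Among 12 tested genes of the promoter-binding complex and its cofactors, 1 rose and the other 11 did not pass. Over all 9936 tested genes 10.5% were higher and 8.08% lower. Nothing is read from the counts of this list or of those that follow. The gene that rose was Rfx5, the DNA-binding subunit of the RFX complex, with 6.50, 6.40 and 6.03 FPKM in NBIF samples, against 4.36, 4.36 and 4.38 FPKM in DMSO samples. Its log2 change was 0.45 ± 0.06 (SE, limma adjusted p = 0.00228). Rfxank, another subunit, had 13.3, 11.8 and 11.05 FPKM in NBIF samples, against 3.31, 10.4 and 7.36 FPKM in DMSO samples, with a wide spread in DMSO (limma adjusted p = 0.0921, and 0.0209 without DMSO 2). Without DMSO 3, Creb1 passed as lower, with a limma adjusted p of 0.00665. The third subunit, Rfxap, had 2.47 ± 0.308 FPKM with NBIF and 2.47 ± 0.283 FPKM with DMSO (SD, n = 3 each).

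Of 8 tested regulators of Ciita, 2 fell and 6 did not pass. Prdm1, which encodes the repressor Blimp-1 that shuts off Ciita in plasma cells, had 3.59, 4.63 and 4.37 FPKM in NBIF samples, against 6.78, 7.98 and 6.95 FPKM in DMSO samples, which is -0.67 ± 0.10 (SE) on the log2 scale (limma adjusted p = 0.00239). Irf8, an interferon regulatory factor of the myeloid lineage, had 5.19, 5.19 and 5.80 FPKM in NBIF samples, against 8.38, 6.88 and 7.30 FPKM in DMSO samples, which is -0.41 ± 0.08 (SE) on the log2 scale (limma adjusted p = 0.0113). The 7 tested genes of interferon gamma signalling gave 0 calls by limma, and 1 was higher at an unadjusted p under 0.05. That gene was Ifngr1, a receptor chain, at 64.7 ± 2.27 FPKM with NBIF and 56.7 ± 3.51 FPKM with DMSO (SD, n = 3 each; limma adjusted p = 0.0520). Ifngr1 passed without DMSO 1 (limma adjusted p = 0.0360) and in 3 other alternatives of 16. The other receptor chain, Ifngr2, had 221 ± 2.44 FPKM with NBIF and 210 ± 7.21 FPKM with DMSO (limma adjusted p = 0.266).

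Among 11 tested genes of endosomal proteases and their inhibitors, 1 rose, 4 fell and 6 did not pass. Ctsd, an aspartic protease of the endosome, rose to 1603 ± 54.9 FPKM with NBIF, against 1229 ± 42.2 FPKM with DMSO (SD, n = 3 each), a rise of 0.38 ± 0.04 (SE) on the log2 scale (limma adjusted p = 0.000701). Cst3, which encodes cystatin C, a secreted inhibitor of cysteine cathepsins including cathepsin S, had 607, 603 and 623 FPKM in NBIF samples, against 790, 795 and 844 FPKM in DMSO samples. Its log2 change was -0.41 ± 0.04 (SE, limma adjusted p = 0.000461). The ratio of Ctss to Cst3, computed after both values were seen, was 0.940 ± 0.0207 with NBIF and 0.549 ± 0.0421 with DMSO (SD, n = 3 each). Ifi30, the endosomal thiol reductase that unfolds antigens, fell to 116 ± 0.842 FPKM with NBIF, against 156 ± 2.17 FPKM with DMSO (log2 change of -0.42, limma adjusted p = 0.000286). The other falls were those of Cst7 (cystatin F), by 0.60 on the log2 scale, and Ctsk, the collagen-degrading protease of osteoclasts, by 0.42. The median log2 change of the list was 0.05. Without DMSO 3, Ctsz also passed as higher (limma adjusted p = 0.0388). After quantile normalization 3 genes passed as higher, with Cstb (limma adjusted p = 0.00859) and Ctsb (0.0319) beside Ctsd.

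Of 8 tested genes of class II turnover and transport, 1 rose, 1 fell and 6 did not pass. The tetraspanin gene Cd82 rose to 108 ± 2.57 FPKM with NBIF, against 89.3 ± 3.89 FPKM with DMSO (log2 change of 0.27, limma adjusted p = 0.00663). Cd63, another tetraspanin of late endosomes, fell by 0.18 on the log2 scale (limma adjusted p = 0.0253), a call lost in 8 of 16 alternatives. Among these were leaving out NBIF 1 (limma adjusted p = 0.0921), NBIF 2 (0.0544), NBIF 3 (0.0824), DMSO 1 (0.0564) or DMSO 2 (0.0562). Arl8b rose and Rilp fell without DMSO 2 (limma adjusted p = 0.0364 and 0.0449), Rilp fell without NBIF 3 (0.0443), and Ap2m1 rose and Rab7 fell without DMSO 3 (0.0237 and 0.0431). Of the Cd74 ligand and co-receptor genes, 4 were tested, with 0 calls by limma and 0 at an unadjusted p under 0.05. Mif, the ligand, had 71.1 ± 1.62 FPKM with NBIF and 74.4 ± 2.12 FPKM with DMSO (SD, n = 3 each). The signalling partner Cd44 had 242 ± 13.1 FPKM with NBIF and 222 ± 83.1 FPKM with DMSO, with DMSO 2 low at 127 FPKM.

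**Figure D4:**
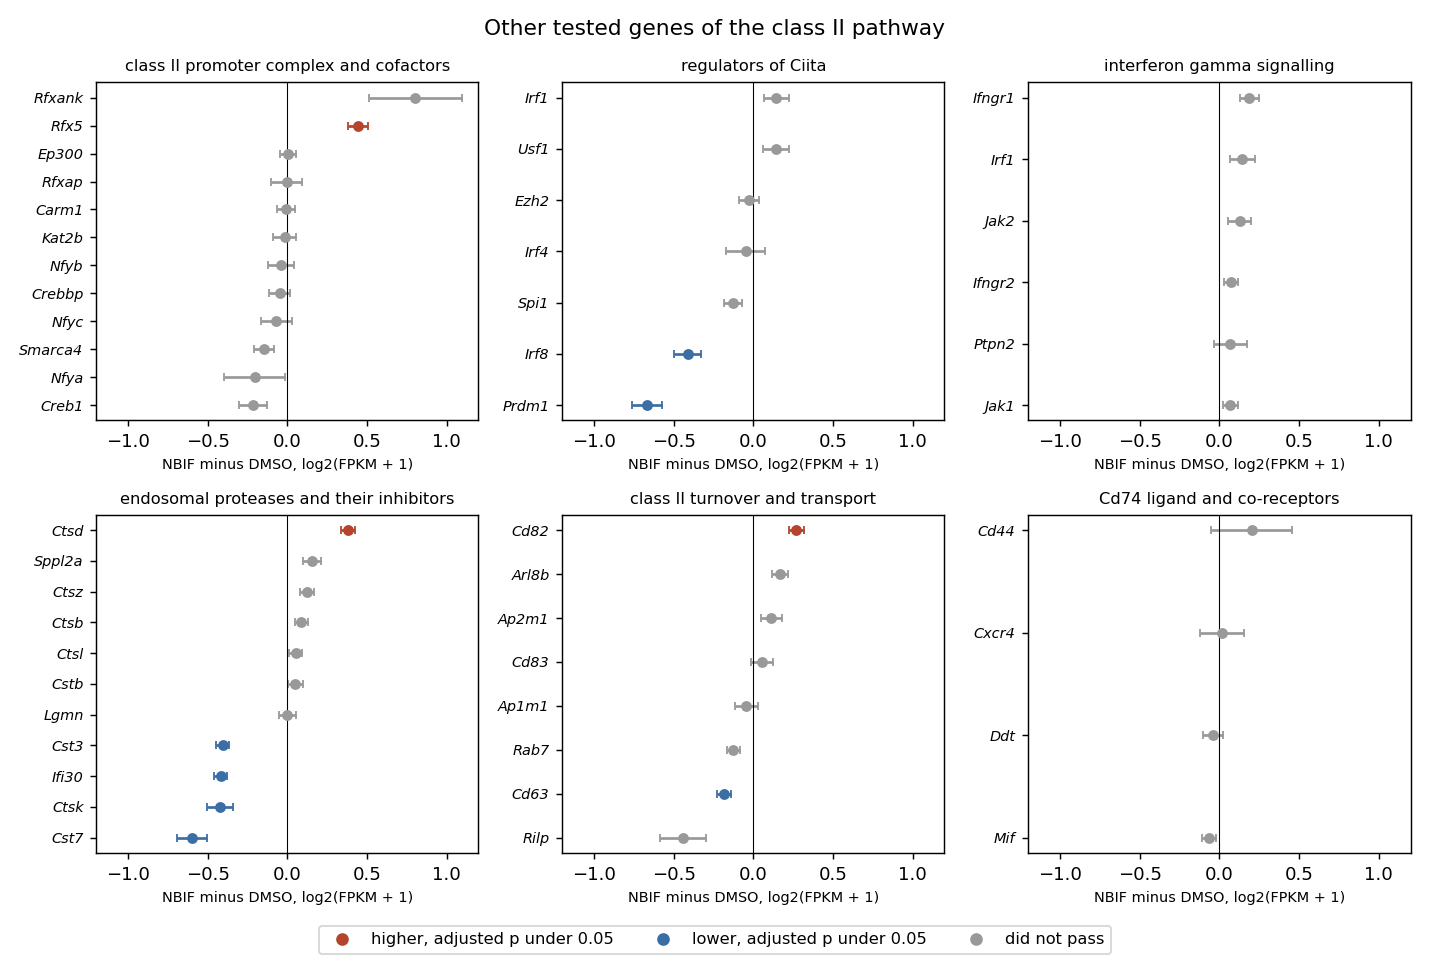
Differences between NBIF and DMSO on the log2(FPKM + 1) scale (points, with the limma SE as bars) for the tested genes plotted from 6 lists around the class II pathway, coloured by call. Rfx5, Ctsd and Cd82 passed as higher, and Prdm1, Irf8, Cst3, Ifi30, Ctsk, Cst7 and Cd63 as lower; the others did not pass.

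Markers of B cells, dendritic cells, T cells, macrophages and osteoclasts were looked up beside these values. Of 9 B cell markers, 3 were at 0 in all 6 samples, among them Ms4a1 and Blk, and the summed level of the list was 0.0143 to 0.514 FPKM in NBIF samples and 0.0224 to 0.185 FPKM in DMSO samples. Of 12 dendritic cell markers, 4 were at 0 throughout (Batf3, Siglech, Cd209a and Kmo) and 3 were tested; Itgax, also made by macrophages, and Fscn1 fell, by 0.63 and 0.56 on the log2 scale. The summed level of these 12 was 30.5 to 33.9 FPKM in NBIF samples and 48.4 to 53.5 FPKM in DMSO samples, most of it Itgax, at 29.2 ± 1.70 FPKM with NBIF and 45.6 ± 2.68 FPKM with DMSO (SD, n = 3 each). The 7 T cell markers summed to 1.04 to 1.21 FPKM in NBIF samples and 1.07 to 1.23 FPKM in DMSO samples, most of it Lck. The cells are labelled macrophage, and the macrophage growth factor receptor gene Csf1r was at 569 to 586 FPKM in NBIF samples and 762 to 850 FPKM in DMSO samples, while Mertk and Mrc1 were near 0. All 7 tested macrophage markers fell, their list of 9 summing to 1408 to 1467 FPKM in NBIF samples and 2312 to 2485 FPKM in DMSO samples. Of 8 tested osteoclast markers, 4 fell (Mmp9, Acp5, Ocstamp and Ctsk), the list of 9 summing to 5731 to 6552 FPKM in NBIF samples and 7474 to 8094 FPKM in DMSO samples. The part of these shifts in the values of the class II genes was not tested, and in bulk samples fewer cells of a type and less RNA per cell cannot be told apart.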

How the data were processed

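The authors deposited 1 table of FPKM values, 1 per gene symbol and sample. Per the labels' protocols, RNA was extracted with TRIzol and libraries were prepared with a kit. The submitters' processing notes list, without roles, HISAT2 2.0.5, DESeq2 1.20.0, featureCounts 1.5.0-p3, CASAVA 1.8 and fastp. They name the build GRCh38, while 97.9% of the symbols were found in mouse GENCODE M21 (GRCm38), and the build used is therefore uncertain. No source used here gives the annotation, gene lengths or strand setting. FPKM depend on the gene length used and on the sum over genes (484603 to 494172 per sample, with 13073 to 13415 genes above 0). Total depth is unknown, so no counting interval is given; ratios between low values put relative depth at 0.886 to 1.09 times that of DMSO 1 (39 to 47 of 305 to 354 genes in the modal window).

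In R 4.3.3, limma 3.58.1 was fitted to log2(FPKM + 1) of all genes whose mean reached 1 FPKM (eBayes with a trend, two-sided, Benjamini-Hochberg over 9936 genes, threshold 0.05). Changes on this scale understate those of low genes. Groups follow the treatment label. The members and the gene lists were chosen with earlier results of these data known. Beside the members, genes were named by a rule, up to 4 passing genes a list with the largest changes or the 2 tested genes with the highest mean where none passed. Named outside it, after their values were seen, were Ctsd (the fifth passing gene of its list) and Creb1, Ctsz, Cstb, Ctsb, Arl8b, Rilp, Ap2m1 and Rab7 (which passed only under an alternative); the other RFX subunits, H2-DMb2, H2-Oa, H2-Ob, H2-Ea-ps, H2-Eb2, Ifng, Brd2 and the markers were named for their roles. Tested on simulated data of the 9936 genes, the NBIF against DMSO fit recovered, with the right sign, 28% of 50 genes changed by 0.25, 78% of those changed by 0.5, 96% of those changed by 1 and 100% of those changed by 2, and 6 of its 157 calls were false. The changed genes were drawn only from those with a mean log2(FPKM + 1) above 2, and they were far fewer than the genes that passed in the data. These rates therefore do not carry over to lower genes or directly to these data. Alternatives were other pseudocounts, filters, scalings and variance priors, a replicate block and leaving out each sample. Marchf1 and Marchf8, on the turnover list, were not analysed here, and some list genes are counted but not reported here by name.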

Additional observations from a re-analysis of the deposited data

How the results depend on the processing

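The number of genes changed was 1850, and ranged from 1006 to 1889 when 1 sample was left out: 1006 without NBIF 1, 1152 without NBIF 2, 1153 without NBIF 3 and 1164 without DMSO 1. Those higher ranged from 496 to 1067 and those lower from 510 to 822. The number of members passing as higher, a description since they were chosen with this comparison known, was 3, and ranged from 3 to 4 with 1 sample left out. It was 5 without the filter, 4 when rescaled as TPM and 2 with a minimum of 5 FPKM. This followed from which members were fitted: H2-Aa joined at 4 and H2-Eb1 was not fitted at 2. The mean of H2-Aa was 1.62 FPKM with NBIF and 0.374 FPKM with DMSO, so it reached the minimum only through its NBIF values. Nothing is read from its pass. On the turnover list, Arl8b passed as higher after rescaling as TPM (limma adjusted p = 0.0382) and with a robust prior (0.0467), and Rab7 as lower after median-ratio scaling (0.0237) and quantile normalization (0.0456), and Rilp as lower with a replicate block (0.04996). The log2 change of H2-Eb1 was 1.65 when the pseudocount was 0.1 and 0.74 when it was 5; that of Cd74 stayed between 0.35 and 0.46, that of Ctss between 0.33 and 0.43 and that of H2-DMa between -0.16 and -0.07 over the 16 alternatives. No member's difference changed sign where the gene was fitted. The calls of Rfx5, Prdm1, Irf8, Ctsd, Cst3, Ifi30, Cst7, Ctsk and Cd82 held in all 16, and that of Cd63 was lost in 8, among them no filter (limma adjusted p = 0.0542), quantile normalization (0.150) and no variance trend (0.0611). With a replicate block 1632 genes changed. Same-numbered samples deviated together weakly (r of 0.0784, 0.126 and 0.0355 over genes). NBIF 2 and NBIF 3 correlated most with the DMSO sample of their own number, while NBIF 1 correlated more with DMSO 3 (0.0974). The labels state no pairing, so the numbers were taken as pairs only in the replicate block. Low members (H2-Ab1, H2-DMb1, Ciita) are limited by depth, which is unknown.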

Other observations

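The likeness of other genes to the 4 members in the fit was measured by Pearson's r of log2(FPKM + 1) over the 6 samples, which fall into 2 groups and so favour any gene that differs between them. For H2-Eb1 the most alike of 9932 tested genes were Slc6a8 (0.998), a creatine transporter gene, Tbl2 (0.996) and Eif2d (0.995), and 365 genes had an r over 0.95. For Cd74 they were Mbp (0.999), Ipp (0.998) and Tef (0.997), and for Ctss they were Tinf2 (0.999), Fig4 (0.998) and the interferon-inducible gene Parp14 (0.997). For H2-DMa, whose groups overlapped, they were Cfl1 (0.987), C030006K11Rik (0.984) and Clta (0.981), with 12 genes over 0.95.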
